A study of Mus musculus with 4 samples.

Results

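Transcript levels of 9 transcription factor genes of the ureteric mesenchyme were examined in ureters of mouse embryos. These 9 were Tbx18, Tbx2, Tbx3, Tshz2, Tshz3, Sox9, Gata2, Gata6 and Tcf21. The embryos had floxed alleles of the FGF receptor genes Fgfr1 and Fgfr2, with or without a listed cre allele at the Tbx18 locus. The genes were taken by name, as every non-control probe whose gene name in the scanner files was one of the 9. This gave 10 probes, of 39429 on the array for 29875 genes, and all 9 genes were among the 19365 that passed the filter on dim probes. The mutant embryos, called cDKO (conditional double knockout), carried cre at one allele of Tbx18, written Tbx18(cre/+), and were homozygous for the floxed alleles Fgfr1(fl/fl) and Fgfr2(fl/fl). The control embryos were Fgfr1(fl/?) and Fgfr2(fl/?), so that floxed alleles were present in both groups, the second allele of each receptor gene is not given for controls, and no cre allele is listed for them. All embryos were of the NMRI strain and of stage E14.5 (E for embryonic day). Each of 4 two-colour arrays held a cDKO ureter extract in one channel and a control ureter extract in the other. The cDKO extract was labelled with Cy5 in replicates 1 and 3 and with Cy3 in replicates 2 and 4.

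The ureteric mesenchyme is the loose tissue around the epithelial tube of the embryonic ureter. Signals from the epithelium, among them SHH and WNT ligands, act on it, and its inner part forms the smooth muscle that propels urine. Transcription factors mark this tissue before muscle genes are switched on, and loss of several of them in mice delays or prevents muscle formation. FGF receptors are receptor tyrosine kinases that pass on signals of fibroblast growth factors. Cre driven by the Tbx18 locus acts in the ureteric mesenchyme and in other tissues that use this locus. The Tbx18 locus is itself 1 of the 9 genes studied, and its cre allele is listed for the cDKO group alone.

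The probes are shown because each value below rests on 1 stretch of RNA, and Tshz2 alone had 2. Sequences are as the scanner files give them, 5′ to 3′, and all 60 bases are printed for Tcf21 and the first of the Tshz2 probes listed, and the first 30 for the others shown. Positions are those of the files (mm9).
Sox9, chr11:112648809-112648868: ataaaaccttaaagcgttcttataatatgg
Tshz3, chr7:37557872-37557931: agaaattaaaggatgctcaaagtaaactca
Tbx3, chr5:120134511-120134570: ctttatggtgttttggattggtgtactgag
Tbx18, chr9:87599514-87599573: gtgcagaagctggttaaatcttagtatatt
Gata2, chr6:88156362-88156421: aactgcataagcttaacccgctgatgagtg
Tshz2, chr2:169711933-169711992: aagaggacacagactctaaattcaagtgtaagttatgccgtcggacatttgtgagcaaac
Tshz2, chr2:169713711-169713770: catgactgtacatcttaccttattgaatgg
Tcf21, chr10:22537563-22537622: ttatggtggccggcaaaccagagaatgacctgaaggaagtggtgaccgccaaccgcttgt
The Tbx2 probe lay at chr11:85655391-85655450. The longest run of bases shared between the probe of one gene and that of another was 7 or 8 bases. Tbx2, Tbx3 and Tbx18 encode related proteins, as do Tshz2 and Tshz3, and Gata2 and Gata6. Probes were compared with each other alone, so this does not show whether a probe matches the transcript of a related gene.

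As background to the whole series, each array held 157716 spots, none of them saturated. The share of spots well above background ranged from 66.1% to 71.8% for cDKO and from 64.9% to 72.6% for control extracts. Replicates 1 and 2 lay on one slide (slide 1) and replicates 3 and 4 on another (slide 2) with its own scan and scanner, and each slide held both dye orientations. Between arrays, the Pearson correlation of the log2 ratios over genes ranged from 0.00559 (replicates 2 and 3) to 0.507 (replicates 1 and 2). Among the targeted genes, Fgfr1 stood at a log2 ratio of -0.40 ± 0.10 (SE, n = 4 arrays, adjusted p = 0.117) and Fgfr2 rose (0.59 ± 0.07, adjusted p = 0.0356). Neither the labels nor the files place the floxed segments, so these probes do not check the genotype labels. All 7 genes taken as markers of the ureteric mesenchyme, 5 of which are among the 9 studied, were measured well above background. Of these 7 markers 6 stood above 0 and 1 below, Osr1 at -0.28 ± 0.09, which is not among the 9.

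No gene of the 9 passed the test between cDKO and control ureters. The test was limma's, and called genes had a Benjamini-Hochberg adjusted p under 0.05 over all 19365 genes; 0.852% of them were called. At the looser threshold of an adjusted p under 0.1, 3 of the 9 were higher in cDKO (Tshz3, Sox9 and Tbx3) and none lower, against 2.25% of all genes called higher and 3.67% called in either direction. An unadjusted p under 0.05 was reached by 8 of the 9, against 19.6% of all genes, with 7 of them higher (11.7% of all genes) and 1 lower (7.88% of all genes). The median log2 ratio of cDKO over control was 0.28 over the 9 genes, with a range of -0.27 to 0.66, against 0.009 over all genes tested. Gata6 was the gene of the 9 without an unadjusted p under 0.05.

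**Figure D1:**
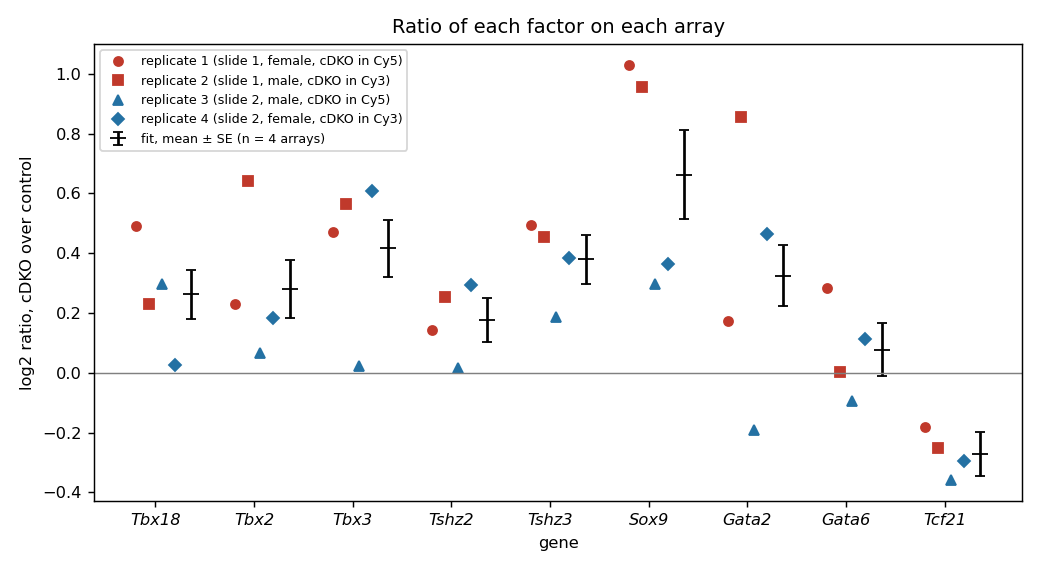
Log2 ratio of cDKO over control on each of the 4 arrays (points) for the 9 genes, with the estimate of the fit and its standard error. Sox9 lies highest, between 0.30 and 1.03, and Tcf21 lies below 0 on every array, between -0.36 and -0.18.

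Sox9 encodes a SOX factor of the ureteric mesenchyme that is required in mice for timely smooth muscle formation and is also the master regulator of cartilage. Its log2 ratio of cDKO over control was 1.03, 0.96, 0.30 and 0.36 in replicates 1 to 4. The cDKO channel levels were 12.68, 12.62, 12.09 and 12.05 on the log2 scale, and the control channel levels were 11.65, 11.67, 11.79 and 11.69. Every cDKO extract was above every control extract, and the cDKO extracts of slide 1 were above those of slide 2 while the control extracts differed little. The estimate was 0.66 ± 0.15 (SE, n = 4; 95% interval 0.31 to 1.02), a 1.58-fold ratio with an adjusted p of 0.0996. Of all genes tested, 0.713% had a higher ratio. The ratio averaged 0.99 on slide 1 and 0.33 on slide 2. The difference of 0.66 ± 0.14 between slides had an adjusted p of 0.0857, from a fit with a single residual degree of freedom. In the authors' deposited table the Sox9 probe had signed folds of 2.01, 1.90, 1.24 and 1.28, all with cDKO higher. Col2a1, a cartilage collagen gene, stood at 0.64 ± 0.11 (adjusted p = 0.0578). Col9a1, another collagen gene of cartilage, stood at 0.03 ± 0.07 (adjusted p = 0.855). Acan, a dim cartilage marker (mean log2 level 7.15 in cDKO, 7.12 in control), stood at 0.03 ± 0.07 (adjusted p = 0.873). Matn1, a cartilage matrix gene, did not pass the filter on dim probes. The summed level of the 3 measured cartilage markers was 20350 to 21569 in cDKO and 17721 to 19524 in control extracts. The part of cartilage cells in the Sox9 value was not tested.

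The T-box genes encode DNA-binding factors with a shared domain. TBX18 keeps the ureteric mesenchyme distinct from kidney stroma and is required for its muscle fate in mice, and TBX2 and TBX3 are repressors that act redundantly in the same cells. Tbx3 had log2 ratios of 0.47, 0.56, 0.02 and 0.61 in replicates 1 to 4. Its cDKO levels were 15.17, 15.39, 15.89 and 16.01, and its control levels were 14.70, 14.82, 15.87 and 15.40. The cDKO level was the higher one within every array, but replicate 3 was nearly even and the groups overlapped, since both groups were brighter on slide 2. The estimate was 0.42 ± 0.09 (95% interval 0.19 to 0.64; 1.33-fold; adjusted p = 0.1, under the looser threshold only before rounding). The authors' deposited table also gave no clear direction for Tbx3 in replicate 3 (signed fold -1.01), and gave 1.39, 1.36 and 1.49 in replicates 1, 2 and 4.

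Tbx18, whose locus carries cre in the cDKO embryos, had log2 ratios of 0.49, 0.23, 0.30 and 0.03. The cDKO levels were 13.77, 13.65, 13.59 and 13.64, and the control levels were 13.27, 13.42, 13.29 and 13.62. The cDKO extract was the higher one within each array, and only the control extract of replicate 4 reached into the cDKO range. The estimate was 0.26 ± 0.08 (95% interval 0.07 to 0.46; adjusted p = 0.164). In the authors' deposited table Tbx18 had signed folds of 1.38, 1.11 and 1.24 in replicates 1 to 3 and of -1.02, with control higher, in replicate 4. Whether the cre allele still makes RNA that this probe detects was not tested. Tbx2 had ratios of 0.23, 0.64, 0.07 and 0.18, with an estimate of 0.28 ± 0.10 (adjusted p = 0.195), and its levels averaged 12.69 ± 0.25 in cDKO and 12.41 ± 0.38 in control extracts (SD, n = 4 each). Replicate 2 gave Tbx2 a much higher ratio than the other 3 arrays, and the groups overlapped.

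**Figure D2:**
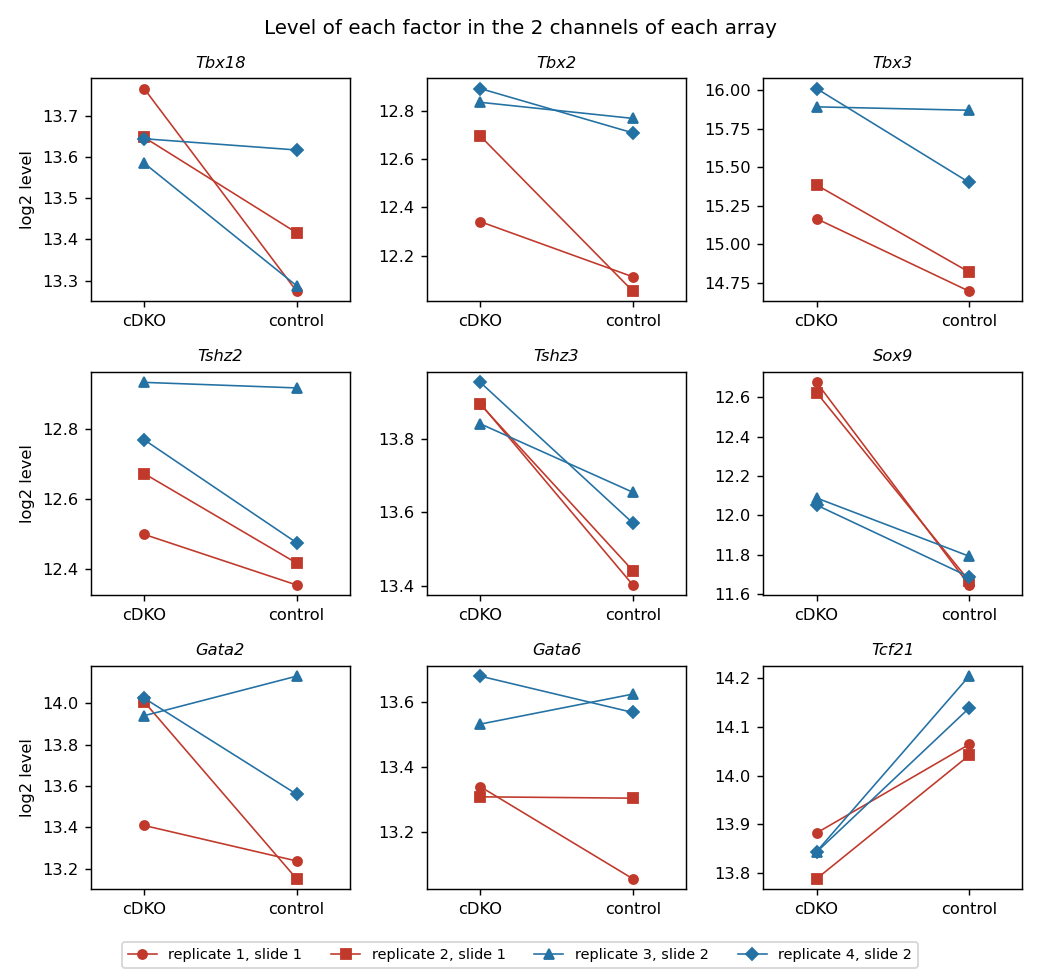
Log2 channel levels of the 9 genes in the 4 cDKO and the 4 control extracts, with lines joining the 2 channels of an array. Levels do not overlap for Sox9 and Tshz3, where cDKO is higher, and for Tcf21, where cDKO is lower.

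The teashirt genes encode zinc finger factors, and TSHZ3 is required in mice for smooth muscle of the upper ureter. Tshz3 had ratios of 0.49, 0.45, 0.19 and 0.38 in replicates 1 to 4. The cDKO levels were 13.90, 13.89, 13.84 and 13.95, and the control levels were 13.40, 13.44, 13.66 and 13.57. All 4 cDKO extracts were above all 4 control extracts, and the cDKO extracts lay close together (SD 0.05, against 0.12 in control). The estimate was 0.38 ± 0.08 (95% interval 0.18 to 0.58; 1.30-fold), with the smallest p of the 9 genes and an adjusted p of 0.0953. Tshz2, a paralog, was read by 2 probes. At the brighter one the ratios were 0.14, 0.25, 0.02 and 0.29, with an estimate of 0.18 ± 0.07 (adjusted p = 0.252), and at the other they were 0.41, 0.22, -0.04 and 0.13, with the same estimate of 0.18 but a larger error (0.09). Both probes were near even in replicate 3.

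The genes whose ratios lay nearest to those of Tshz3, by root mean square difference over the 4 arrays, were Pom121 (0.031), Dhrs3 (0.0377), Mex3a (0.05), Pogz (0.0514) and Smpx (0.0525). None of these 5 was called.

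The GATA genes encode zinc finger factors that bind GATA motifs. GATA2 is expressed in the ureteric mesenchyme and is also a factor of blood and endothelial cells. Its ratios were 0.17, 0.86, -0.19 and 0.46 in replicates 1 to 4. The cDKO levels were 13.41, 14.01, 13.94 and 14.02, and the control levels were 13.24, 13.15, 14.13 and 13.56. The groups overlapped, and on replicate 3 the control extract was higher. The estimate was 0.33 ± 0.10 (95% interval 0.08 to 0.57; adjusted p = 0.168). Gata2 was the gene of the 9 with an unadjusted p under 0.05 for the dye, against 8.8% of all genes (red over green -0.33 ± 0.10, adjusted p = 0.499), and the arrays with cDKO in Cy3 gave the higher ratios. Of 5 endothelial markers 1 fell in cDKO (Emcn, -0.58 ± 0.07), with 4 below and 1 above 0. Of 6 erythroid markers 2 fell (Hba-x, -0.66 ± 0.09, and Hbb-bh1, -0.54 ± 0.07), with 5 below and 1 above 0. The part of these cells in the Gata2 value was not tested. Gata6, whose product activates muscle genes, was read by a probe on chromosome 18 from 11085039 to 11085097 and had ratios of 0.28, 0.00, -0.09 and 0.11 and an estimate of 0.08 ± 0.09 (95% interval -0.14 to 0.29; adjusted p = 0.685). Its levels averaged 13.46 ± 0.17 in cDKO and 13.39 ± 0.26 in control extracts (SD, n = 4 each) and overlapped.

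Tcf21 encodes a basic helix-loop-helix factor of embryonic mesenchyme that is also expressed in kidney stroma. It was the gene of the 9 with a negative estimate. Its ratios were -0.18, -0.25, -0.36 and -0.29 in replicates 1 to 4, the narrowest spread of the 9. The cDKO levels were 13.88, 13.79, 13.84 and 13.84, and the control levels were 14.06, 14.04, 14.20 and 14.14. All 4 cDKO extracts were below all 4 control extracts. The estimate was -0.27 ± 0.08 (95% interval -0.45 to -0.09; 0.83-fold), with an adjusted p of 0.138. In these whole-ureter extracts, fewer cells of a type and less RNA per cell cannot be told apart. Of the 3 kidney stroma markers 2 stood above 0, Foxd1 at 0.26 ± 0.13 (adjusted p = 0.314) and Meis1 at 0.10 ± 0.09 (adjusted p = 0.581), and Ren1 stood at -0.07 ± 0.08 (adjusted p = 0.721). Their part in the Tcf21 value was not tested. The authors' deposited table gave signed folds of -1.15, -1.27, -1.29 and -1.27 for Tcf21.

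Across the 9 genes, 6 had a ratio above 0 on all 4 arrays (Tbx18, Tbx2, Tbx3, Tshz2, Tshz3 and Sox9), against 13.4% of all genes. Tcf21 was below 0 on all 4, as were 11.8% of all genes. Levels did not overlap with cDKO higher for 2 of the 9 (4.7% of all genes) and with cDKO lower for 1 (3.34% of all genes). On replicate 3 the median ratio of the 9 genes was 0.02, against 0.28, 0.45 and 0.29 in replicates 1, 2 and 4. Replicate 3 also had fewer spots well above background in its cDKO channel (66.1%) than in its control channel (72.6%). Replicate 4, on the same slide, had the reverse (71.8% in cDKO, 64.9% in control). The lower channel was Cy5 in both. The part of this in the low ratios of replicate 3 was not tested.

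**Figure D3:**
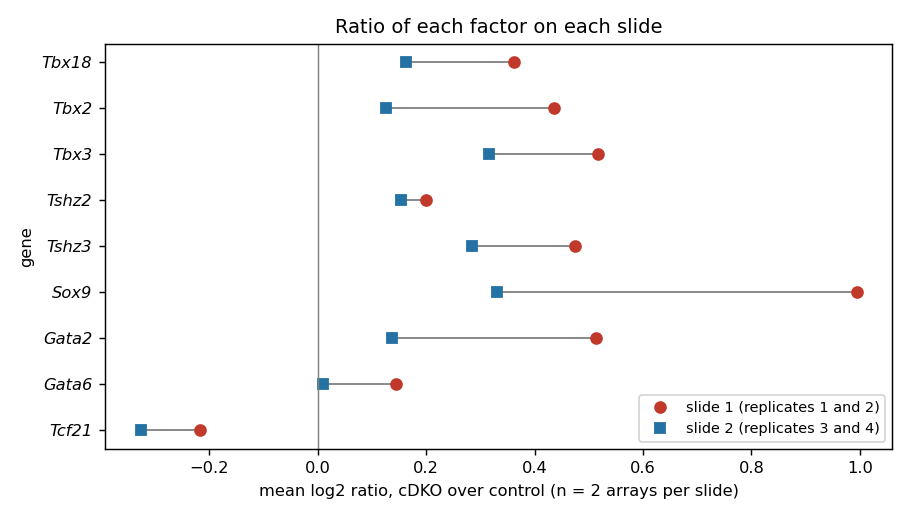
Mean log2 ratio of cDKO over control on slide 1 (replicates 1 and 2) and on slide 2 (replicates 3 and 4) for the 9 genes. All 9 are higher on slide 1, with the widest gap for Sox9 (0.99 and 0.33).

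All 9 genes had a higher signed ratio on slide 1 than on slide 2, whereas 51.2% of all genes did. The median ratio of the 9 was 0.44 on slide 1 and 0.15 on slide 2. An unadjusted p under 0.05 for the slide difference was reached by 2 of the 9, Sox9 and Gata2 (0.38 higher on slide 1, adjusted p = 0.281), against 14.3% of all genes, and none was called, against 0.893% of all genes. In a fit that added a slide term to the dye term, 7 of the 9 were called (12.5% of all genes), 6 higher (8.01% of all genes) and 1 lower (4.47% of all genes). The adjusted p in that fit was 0.00129 for Sox9, 0.0139 for Tshz3, 0.015 for Tbx3, 0.0211 for Gata2, 0.0411 for Tcf21, 0.0436 for Tbx2 and 0.044 for Tbx18. Tshz2 (0.144) and Gata6 (0.591) were not called. That fit leaves 1 residual degree of freedom and takes the slide difference out of the error, so its p-values do not measure the spread over the 4 pairs. The labels give female for replicates 1 and 4 and male for replicates 2 and 3. By sex label, the estimate for Tbx3 was 0.54 on female-labelled and 0.29 on male-labelled arrays. No gene of the 9 reached an unadjusted p under 0.05 for a difference between sex labels, against 1.07% of all genes. The female-labelled array had cDKO in Cy5 on slide 1 and in Cy3 on slide 2. A sex difference therefore cannot be told apart from a dye bias that differs between the slides.

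**Figure D4:**
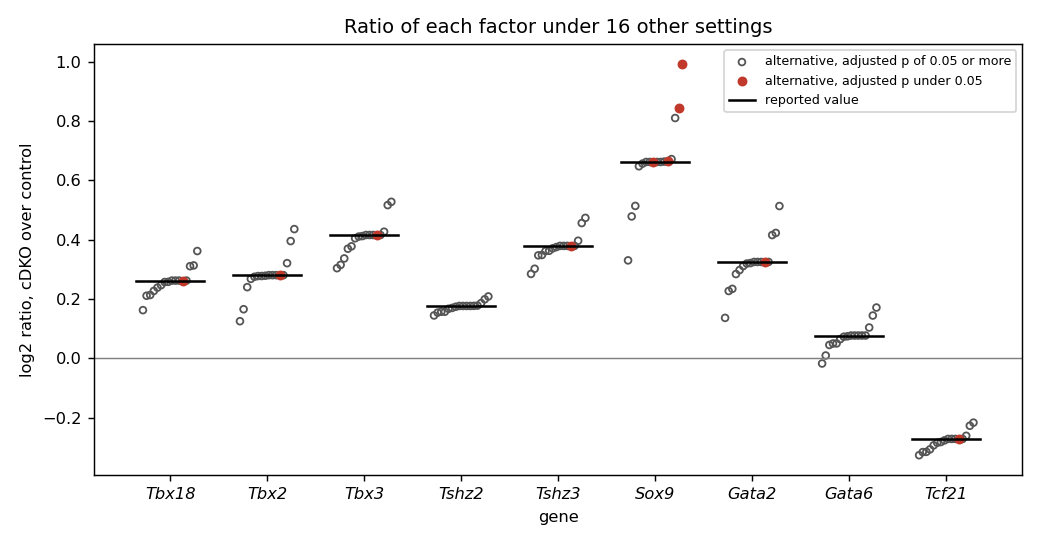
Log2 ratio of cDKO over control of the 9 genes as reported (line) and under each of 16 other settings (points), with called values in red. Gata6 is the gene that crosses 0 (-0.017 without replicate 1).

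Other regulators of the ureteric mesenchyme were listed for comparison. Of 20 listed genes 19 were measured, 2 were called higher (0.553% of all genes were) and none lower (0.3% of all genes). Foxl1, a forkhead gene of the mesenchyme activated by hedgehog signalling, rose in all 4 arrays (1.09, 1.12, 0.67 and 0.92; 0.95 ± 0.10, adjusted p = 0.0279), and the hedgehog receptor gene Ptch1 rose too (0.72, 0.48, 0.54 and 0.45; 0.55 ± 0.08, adjusted p = 0.0401). Foxf1, a forkhead gene of the same tissue, stood at 0.60 ± 0.12 (adjusted p = 0.0782). The list had 17 genes above 0, 2 below and a median of 0.18, and Foxf2 did not pass the filter on dim probes. Those below 0 were Osr1 (-0.28 ± 0.09, adjusted p = 0.171) and Tshz1, a paralog of Tshz2 and Tshz3 (-0.18 ± 0.09, adjusted p = 0.316). Of 13 genes of the smooth muscle programme 12 were measured and none was called, with 11 above 0 and a median of 0.17. Of those above 0, Smtn (0.05 ± 0.08), Des (0.05 ± 0.10), Acta2 (0.05 ± 0.17) and Cnn1 (0.002 ± 0.08) lay within their SE of 0. The 1 below 0 was Myh11, at -0.22 ± 0.09 (adjusted p = 0.238), and its probe was dim (mean log2 level 7.01 in cDKO, 7.23 in control). Synpo2, an actin-binding protein gene of muscle, stood at 0.72 ± 0.12 (adjusted p = 0.0558), and Myl9, a myosin light chain gene, at 0.28 ± 0.07 (adjusted p = 0.125).

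Paralogs of the 9 genes lay on both sides of 0. Of 25 listed paralogs 15 were measured, 7 above 0 and 8 below, with a median of -0.003 and none called. Their mean log2 levels in cDKO extracts ran from 6.85 to 14.32, against 12.36 to 15.61 for the 9 genes. The median of the paralogs and that of the 9 genes thus come from unlike levels. The part of level in this was not tested. Gata3, another GATA factor gene, stood at 0.41 ± 0.10 (adjusted p = 0.113), and Tcf15, a helix-loop-helix factor gene of somites, at -0.33 ± 0.14 (adjusted p = 0.251). The remaining 10 paralogs, among them Tbx5, Tbx20, Gata4 and Sox8, were not well above background in either genotype.

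**Figure D5:**
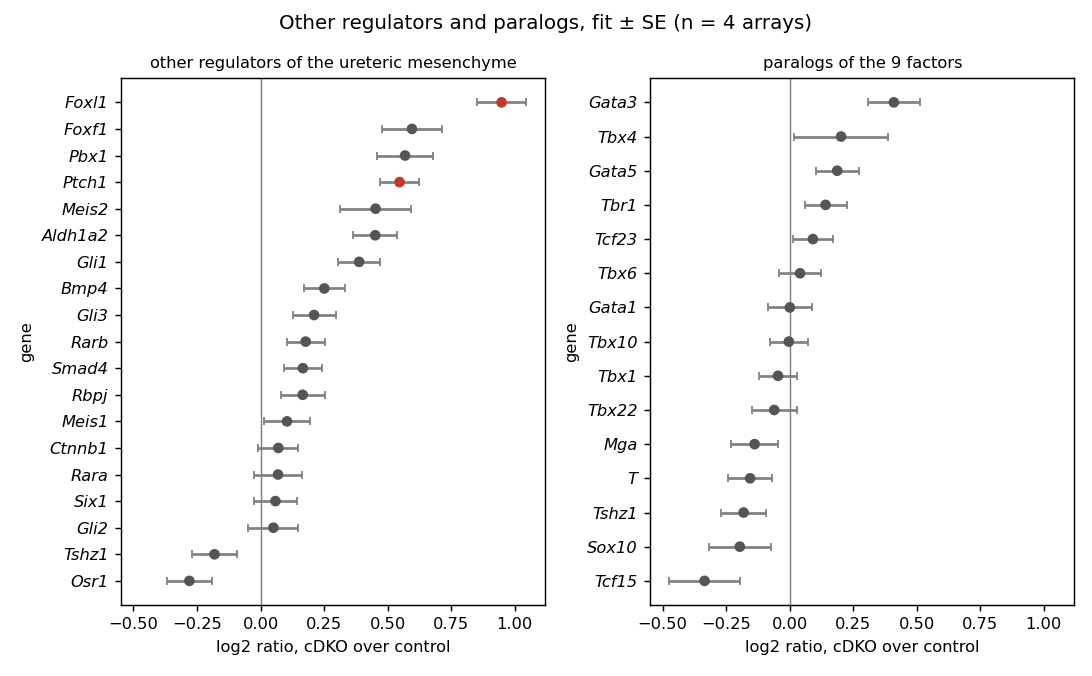
Log2 ratio of cDKO over control (fit ± SE, n = 4 arrays) for the 19 measured other regulators (left) and the 15 measured paralogs (right), with called genes in red. Of the regulators 17 lie above 0, with Foxl1 and Ptch1 called, and the paralogs lie on both sides of 0 with none called.

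Levels of markers of other cell types in the dissected tissue are given beside these values. Each sum adds the intensities of different probes, so the brightest probe weighs most. In the erythroid sum this was Hbb-y (mean log2 level 17.18 in cDKO, 17.52 in control), ahead of Hba-x (13.30 and 13.96). In the kidney stroma sum it was Meis1 (15.89 and 15.79), also on the list of ureteric mesenchyme regulators, ahead of Foxd1 (13.70 and 13.44). The endothelial markers summed to 14272 to 16166 in cDKO and 15526 to 21264 in control extracts, and Emcn, 1 of 5, fell (-0.58 ± 0.07). The macrophage markers summed to 9140 to 11524 in cDKO and 12290 to 14214 in control extracts, and Fcer1g, 1 of 5, fell (-0.52 ± 0.08). The erythroid markers summed to 152998 to 197297 in cDKO and 202443 to 233024 in control extracts, and the embryonic globin genes Hbb-bh1 (-0.54 ± 0.07) and Hba-x (-0.66 ± 0.09) fell, 2 of 6. Mesothelial markers also stood lower, with sums of 1486 to 2108 in cDKO and 2697 to 3107 in control extracts, and Msln, 1 of 3, fell (-0.82 ± 0.09). Urothelial sums overlapped (39761 to 52099 in cDKO, 43689 to 51239 in control). Of 10 urothelial markers 7 stood below and 3 above 0. Upk1b, a uroplakin gene of the urothelial surface, was the 1 called (-1.43 ± 0.20). The other uroplakin genes of this list also stood below 0 but were not called. Upk3a stood at -0.91 ± 0.15 (adjusted p = 0.0558), Upk2 at -0.59 ± 0.14 and Upk1a at -0.59 ± 0.17. No marker was called among 6 of smooth muscle (11098 to 26018 in cDKO, 9638 to 17047 in control), with Actg2 at 0.36 ± 0.11 and Tagln at 0.49 ± 0.17. Of these 6 markers 5 stood above 0, with a median of 0.14 over the 6, and Myh11 stood at -0.22 ± 0.09. Among the 5, Acta2 (0.05 ± 0.17) and Cnn1 (0.002 ± 0.08) lay within their SE of 0. None was called among 6 of the nephron (17381 to 21423 in cDKO, 12362 to 19670 in control), with Pax8 at 0.47 ± 0.13 and Wt1 at 0.26 ± 0.14. None of 3 kidney stroma markers was called (70873 to 78277 in cDKO, 63309 to 76782 in control), and none of 5 of glia and neurons (4234 to 6804 in cDKO, 5040 to 7917 in control), with S100b at -0.45 ± 0.10 and Th at -0.64 ± 0.21. Of the markers on the array, Nphs1 of the nephron and Matn1 of cartilage did not pass the filter on dim probes, and all others did. Their part in the values of the 9 genes was not tested.

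Promoter sequences in RefSeq (GRCm38.p6) covered 5 of the 9 genes, in 6 windows, and are shown for the gene whose locus carries cre and for the gene with the negative estimate. Each is the 250 bases before the start site, with the strand in brackets, and capitals mark a motif match.
Tbx18, chr9:87731261-87731510 (minus strand): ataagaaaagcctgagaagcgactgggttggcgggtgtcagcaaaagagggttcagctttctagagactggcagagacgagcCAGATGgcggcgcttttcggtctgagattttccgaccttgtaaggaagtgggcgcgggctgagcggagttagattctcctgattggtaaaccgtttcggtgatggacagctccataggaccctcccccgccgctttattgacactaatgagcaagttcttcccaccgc
Tcf21, chr10:22820144-22820393 (minus strand): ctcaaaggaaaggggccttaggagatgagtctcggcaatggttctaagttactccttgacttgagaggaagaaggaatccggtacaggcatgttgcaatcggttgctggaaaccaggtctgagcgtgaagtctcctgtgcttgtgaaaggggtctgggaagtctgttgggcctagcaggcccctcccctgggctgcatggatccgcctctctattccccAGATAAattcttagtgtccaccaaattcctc
The capitals in Tbx18 are an E-box (CANNTG), found in 72.3% of all 32851 windows of 300 bases, and those in Tcf21 are a GATA motif (AGATAA), found in 11.2%. Of the 6 windows the E-box was also in one of Gata2. A GLI motif (TGGGTGGTC), a TCF/LEF motif (CTTTGAT), a T-box motif (AGGTGTGA) and a SOX motif (AACAAAG), searched on both strands like the others, were in 0.253%, 3.73%, 1.28% and 5.85% of all windows and in none of the 6. These letters describe the windows and show nothing about binding.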

How the data were processed

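Total RNA (150 ng) from ureters was labelled and hybridised by the authors, per the labels' protocols. Spots were read with Agilent Feature Extraction 10.7.3.1, per the submitters' processing notes. The deposited scanner files, per the file headers, hold mean and local background intensity per spot and channel, processed intensity, a log10 ratio of red over green made by that software, and quality marks. The authors' deposited value table holds a score, a signed fold that is positive where cDKO is higher. This direction was settled over kept probes, where each column correlated with the scanner's red over green log ratio at 0.989 or more with cDKO in Cy5 (replicates 1 and 3), and at -0.991 or less with cDKO in Cy3 (replicates 2 and 4). Each column has a median of 1, and its scaling and centring stay unknown. Arrays report brightness, so the number of arrays limits the precision.

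Mean intensities were corrected with normexp (offset 50), normalised within arrays by loess (span 0.3), and unmarked spots of a probe averaged. Probes with at least 3 of 4 spots well above background on all 4 arrays in one genotype were kept (25591 of 39429, 64.9%), and the brightest kept probe stood for a gene. Levels are log2 intensities after quantile scaling between arrays. Levels of different probes are set side by side only for the marker sums. The fit to log2 ratios used limma 3.58.1 in R 4.3.3 (functions lmFit and eBayes), with terms for dye and genotype, two-sided, with 2 residual degrees of freedom beside 4.53 of the prior and Benjamini-Hochberg adjustment over 19365 genes, and the fit was tested on simulated data. Probes were named through RefSeq accession (28328), current symbol (3400), synonym (243) or the file's name (7458). The labels name no animals or pools, so p-values measure the spread between 4 pairs of extracts, which may be technical. The alternatives were the terms of the fit, single slides without the dye term, background correction, normalisation, the filter, the choice of probe, the deposited table and leaving out each array.

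The 9 genes and all lists were chosen with earlier results of these data known. The rule for named genes took all 9 with every probe, Fgfr1 and Fgfr2, from each list up to 4 called genes by smallest p (for a list with no call, the 2 lowest p), and the 5 genes nearest in ratio to the gene with the smallest p. Tbx5, Tbx20, Gata4, Sox8, Foxf2, Nphs1 and Matn1 were named outside it, for not passing the filter on dim probes. Ren1 and Acan were named to complete their lists. Also outside it, Upk3a, Upk2, Upk1a, Myh11, Osr1 and Tshz1 were named for standing below 0, and Hbb-y for its brightness. Smtn, Des, Acta2 and Cnn1 were named outside it for lying near 0.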

Additional observations from a re-analysis of the deposited data

Results flagged for a closer look

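One value among the 27 groups of 4 levels or ratios examined lay far from the others. The cDKO level of Gata2 in replicate 1 was 13.41 on the log2 scale, against 13.94 to 14.02 in the other 3 cDKO extracts, and its gap to the nearest of them was 0.862 of the whole range of the group, above Dixon's 95% critical value for 4 samples. Chance puts about 5% of such groups past that value.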

How the results depend on the processing

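Over the alternatives the 9 genes gave 144 results, of which 133 kept their direction and their side of the threshold, 10 became called, and 1 turned, Gata6 at -0.017 without replicate 1. Without the dye term, with a slide or sex term and with dim probes kept, the estimate of each of the 9 repeated the reported one. Those settings could change only the side of the threshold, not the direction. Under the mean of all kept probes only Tshz2, with 2 probes, could move. None of the 9 was called as reported. With a slide term 7 were called, and Sox9 alone was called within slide 1 without the dye term (1 gene; adjusted p = 0.0118) and with median centring (1 gene; adjusted p = 0.0203). Leaving out each replicate gave 0 to 1 called of the 9, Sox9 without replicate 3 (0.85, adjusted p = 0.0419), and its adjusted p over all alternatives was 0.00129 to 0.63. Over all genes the count of 165 became 258 without the dye term, 2418 with a slide term, 2 with a sex term, 551 within slide 1 and 0 in limma within slide 2 (1346 at an unadjusted p under 0.05), both without the dye term, 255 after median centring and 1 with dim probes kept. Counts were 34 to 403 with one replicate left out. Of probes, 152 were called, and 1 without the filter, which tests more probes. Otherwise the cause was not tested. Tbx2 stood at 0.17 without replicate 2 and Gata6 at 0.17 without replicate 3. Each array already pairs its cDKO and control extracts in one ratio. One alternative, the median over all 4 spots of the probes of the 9 genes, was chosen after seeing the data and called none of them. The median over all genes stayed between -0.012 and 0.012 under every setting. Where loess or median centring was applied, that step itself holds this median near 0, so it is no check of stability. Spots of one probe had an SD of 0.00879 to 0.169 on the log2 scale, against 0.0746 to 0.444 between arrays.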
